A study of Mus musculus with 11 samples.

Results

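RFX1-only regions inside genes are stretches of the mouse genome at which ChIP-seq of ependymal cells called a peak for RFX1 and none for RFX2 or RFX3, and whose RFX1 summit lay in the body of a protein-coding gene, more than 1 kb from the start and end of every such gene. The peaks of the 3 deposited lists were merged where they shared at least 1 bp, which gave 11236 regions. Of these, 840 were RFX1-only regions inside genes, or 7.48% (95% exact binomial interval 7.0 to 7.98%). They made up 44.2% of the 1900 regions with RFX1 alone (42.0 to 46.5%); another 414 lay within 1 kb of a gene end and 646 between genes. The regions were selected on the RFX1 calls, on the missing RFX2 and RFX3 calls and on position, so those values are given below as a description without a test. Each of the 840 regions held exactly 1 RFX1 peak.

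Ependymal cells carry many motile cilia and line the ventricles of the brain. They were differentiated ex vivo from the lateral brain walls of wild-type OF1 mice, labelled both as embryonic tissue and as P0. There were 6 ChIP samples (2 per factor) and 5 input samples, all of that 1 genotype, with separate antibody lots for the RFX2 replicates. Replicates had been combined into 1 list per factor, so no replicate error can be given, and the intervals cover the counting of regions or genes only. The lists give no expression, so the identity of the cells could not be checked against marker genes.

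The RFX family of transcription factors binds DNA through a winged helix and recognises the X-box, an imperfect inverted repeat with a variable gap between its arms. RFX1 is broadly expressed and can activate or repress transcription, whereas RFX2 and RFX3 are best known as regulators of cilium genes, whose X-boxes typically lie close to the transcription start. Binding far inside a gene body can fall on an enhancer, on an internal promoter or on DNA with no known role, and a peak inside a gene need not act on that gene. A factor without a peak in a list was not called there; its absence was not measured.

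Sequence could be read only where a summit fell in a RefSeq start window of GRCm38.p6, which spans 250 bases before to 50 bases after an annotated start. This was the case for 25 of the 814 regions on chromosomes with such windows here. In 20 of them the start belonged to the host gene itself, since the outer span of a gene can begin upstream of the start listed for it; in the other 5 it was the start of a lncRNA. The 9 stretches of 100 bases that follow are written 5′ to 3′ on the strand of the named gene and end before its start. The first 7 are shown because they hold an X-box arm near the RFX1 summit. The last 2, at the strongest summits of the 25, hold no exact copy of the arm. Capitals mark the arm, GTTGCC or its reverse complement GGCAAC, and in Gm30244 the full X-box. The arm search allowed no mismatch, so gttgtcctgacaac in Lsamp, an inverted repeat close to the summit, was not counted. The Pdxp summit (78913675) lay at the edge of its window (from 78913669), so the sequence before it was hardly read.
1700042O10Rik (inside Ddc), chr11:11868023-11868122, plus strand: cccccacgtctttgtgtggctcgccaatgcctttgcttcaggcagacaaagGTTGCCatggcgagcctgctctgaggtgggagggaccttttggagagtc
Ccdc105, chr10:78753068-78753167, minus strand: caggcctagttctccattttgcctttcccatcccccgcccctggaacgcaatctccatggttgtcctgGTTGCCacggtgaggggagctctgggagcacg
Nat10, chr2:103761367-103761466, minus strand: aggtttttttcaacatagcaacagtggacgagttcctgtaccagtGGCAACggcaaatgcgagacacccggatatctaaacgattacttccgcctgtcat
Galk2, chr2:125866106-125866205, plus strand: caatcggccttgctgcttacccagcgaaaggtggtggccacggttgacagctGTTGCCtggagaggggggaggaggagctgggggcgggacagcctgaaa
Arvcf, chr16:18392391-18392490, plus strand: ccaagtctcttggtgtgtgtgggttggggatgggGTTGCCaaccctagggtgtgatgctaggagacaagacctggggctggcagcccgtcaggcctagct
Coq10a, chr10:128368981-128369080, minus strand: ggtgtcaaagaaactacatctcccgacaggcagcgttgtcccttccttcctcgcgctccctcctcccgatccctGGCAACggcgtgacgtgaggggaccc
Gm30244 (inside Abhd6), chr14:8004055-8004154, minus strand: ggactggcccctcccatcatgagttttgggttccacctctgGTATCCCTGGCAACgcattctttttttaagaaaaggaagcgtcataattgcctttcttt
Lsamp, chr16:41532662-41532761, plus strand: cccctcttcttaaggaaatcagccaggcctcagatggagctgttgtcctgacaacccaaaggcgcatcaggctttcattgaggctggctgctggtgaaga
Pdxp, chr15:78913669-78913768, plus strand: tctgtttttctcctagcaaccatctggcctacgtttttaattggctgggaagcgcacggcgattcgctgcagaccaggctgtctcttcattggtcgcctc

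In the window of 1700042O10Rik, inside Ddc (the aromatic amino acid decarboxylase of dopamine and serotonin synthesis), the centre of the arm lay 0.5 bp from the RFX1 summit, which had a fold enrichment of 7.32 and a −log10 q of 32.0. The arm lay 2.5 bp from the summit at Ccdc105, a coiled-coil protein gene (fold enrichment 7.71), and equally close at Nat10, an RNA cytidine acetyltransferase (7.0). It lay 4.5 bp away at Galk2, a galactokinase family gene (5.99), 12.5 bp away at Coq10a, a coenzyme Q binding protein (5.62), and 13.5 bp away at Arvcf, a catenin family protein (6.45). The full X-box of Gm30244, a lncRNA whose start lies inside the lipase gene Abhd6, was 13.5 bp from a weaker summit (5.15). These 7 sites were picked for an arm near the summit. In the remaining windows with an arm, its centre lay from 6.5 bp (Ppp1r13l) to 60.5 bp (Zfp459) away.

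Over the 25 windows, 12 held an arm (48.0%, 27.8 to 68.7%), and in 11 of the 12 its centre was within 50 bp of the summit. Among all 32851 RefSeq start windows, 12.5% held one. The share was 45.1% in the 82 windows at regions inside genes with RFX1 and RFX3 (odds ratio 1.12, exact p = 0.822) and 44.0% in the 25 windows at RFX3-only regions inside genes (odds ratio 1.17, exact p = 1). In the 41 windows at 3-factor regions it was 70.7%, a difference that was not tested. A full X-box was written as a left arm GTTNCC or GTNGCC, a gap of 0 to 2 bases and a right arm GGNAAC, or as GTTGCC with GGNNAC, on either strand. It was found in 2 of the 25 windows (8.0%), those of Gm30244 and of Ppp1r13l, an inhibitor of p53 family proteins, against 1.53% of all windows. It was found in 14 of 82 windows with RFX1 and RFX3 (17.1%; odds ratio 0.422) and in 5 of 25 with RFX3 alone (odds ratio 0.348), and in 10 of 41 with all 3 factors (24.4%, not tested). Neither difference passed Fisher's exact test (exact p = 0.350 and 0.417; adjusted p = 1 for both), and with 25 windows the interval for the RFX1-only regions ran from 0.984 to 26.0%.

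The other motifs separated the windows no better: of 26 two-sided Fisher's exact tests over 13 motifs, none had an adjusted p under 0.05. The lowest p was for the first arm of the NFI site, TTGGCA on either strand, found in 2 of 25 windows (8.0%) against 26 of 82 with RFX1 and RFX3 (31.7%; exact p = 0.0194, adjusted p = 0.504) and 14.1% of all windows. GC boxes (GGGCGG, either strand), the sites of SP and KLF factors, were in 12 of 25 windows (48.0%), in 46.3% with RFX1 and RFX3 (odds ratio 1.07, exact p = 1), in 39.0% with all 3 and in 35.7% of all windows. The median GC content of the 25 windows was 59.0% (46.3 to 72.3%), compared with 57.3% at regions with RFX1 and RFX3, 55.7% with all 3, 49.3% at RFX3-only regions and 52.7% over all windows. The AP-1 site was in none of the 25 windows and in 5 of 25 at RFX3-only regions (exact p = 0.0502, adjusted p = 0.653).

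Summits at annotated starts were one feature that the rule did not fix, since the 1 kb limit used only the outer ends of genes. Summits lay in a start window in 3.07% of the RFX1-only regions (25 of 814, 2.0 to 4.5%). The share was higher in regions with all 3 factors, at 8.40% (41 of 488; odds ratio 0.345, Fisher's exact test, adjusted p = 0.00023 over 6 tests), and lower in RFX3-only regions, at 1.54% (25 of 1619; odds ratio 2.02, exact test, adjusted p = 0.0453). The difference from regions with RFX1 and RFX3 (82 of 1776, 4.62%) did not pass the test (odds ratio 0.655, exact test, adjusted p = 0.142). The regions are no independent replicates, and the p-values describe these lists alone. The difference from RFX3-only regions was lost for summits over 5 kb from gene ends (odds ratio 1.38, exact p = 0.438), and that from the 3-factor regions among the better-scoring 50% of RFX1 peaks (0.619, exact p = 0.334). Position along the host showed no such difference: 54.4% of RFX1-only summits with a stranded host (366 of 673) were nearer to its start than to its far end, against 54.1% with RFX1 and RFX3, 58.6% with all 3 and 50.7% with RFX3 alone (exact tests, adjusted p = 0.925, 0.221 and 0.192).

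The RFX1 peaks of these regions were among the weaker peaks of the RFX1 list. Fold enrichment, the authors' ratio of ChIP to background signal at a peak, ranged from 3.27 to 17.1 with a median of 6.16 (6.05 to 6.34, 95% order-statistic interval). The median was 7.29 in the 1842 regions inside genes with RFX1 and RFX3 and 12.9 in the 506 with all 3 factors. The −log10 q of the peak caller, which grows with the strength of the call, had a median of 17.3 (16.8 to 18.1) and ran from 12 to 87.3, against medians of 27.4 and 83.3. Peak width followed the same order, with medians of 271, 311 and 418 bp. RFX1-only regions at gene ends had a lower median fold enrichment (5.62) and a higher median −log10 q (20.2), and those between genes had medians of 6.40 and 16.9.

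When the 7440 RFX1 peaks were divided into 10 equal parts by −log10 q, none of the 744 strongest peaks was an RFX1-only region inside a gene, and 200 of the 744 weakest were (26.9%). The share rose at every step between them, and 725 of the 840 regions (86.3%) lay in the weaker 5 parts. Regions with all 3 factors ran the other way, from 26.9% of the strongest part to none of the weakest. Those with RFX1 and RFX3 were most frequent in the middle, at 35.2% of the sixth part.

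**Figure D1:**
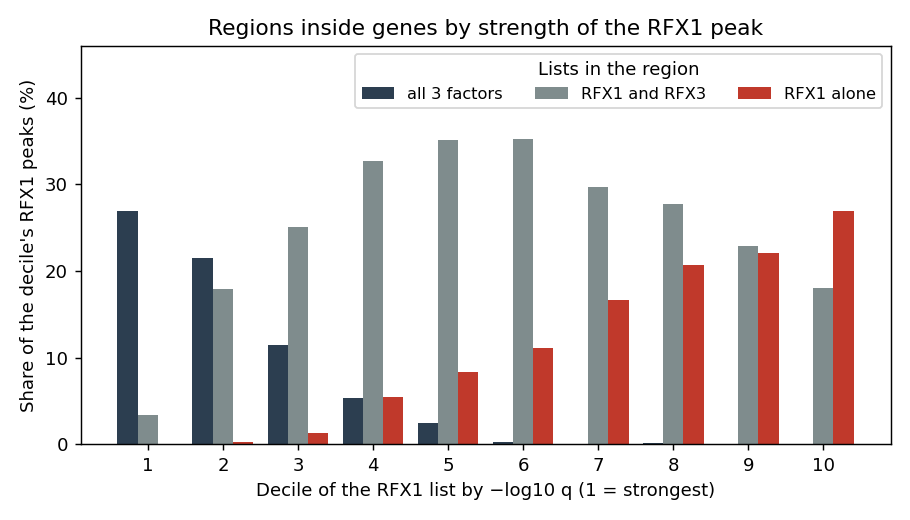
Share of RFX1 peaks (%, y axis) in each of 10 equal parts of the RFX1 list ranked by −log10 q (x axis, 1 = strongest) that were regions inside genes with RFX1 alone (red), RFX1 and RFX3 (grey) or all 3 factors (dark blue). RFX1-only regions rise from 0 to 26.9% while 3-factor regions fall from 26.9% to 0.

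A small group was strong. In all, 44 regions had a fold enrichment of at least 10 and 21 had one under 4. The region with the highest −log10 q lay in Ptprn2, a secretory vesicle protein of the tyrosine phosphatase family (chr12:116550168-116550582, fold enrichment 16.7, −log10 q 87.3); it ranked at 830 of the RFX1 list, 64.7 kb from the nearest gene end and 26.4 kb from the nearest RFX3 peak. The region in Dym, mutated in a skeletal dysplasia, had the highest fold enrichment (chr18:75087520-75087945, fold enrichment 17.1, −log10 q 85.3). After a gap came Coro2b, an actin-binding coronin (9.43 and 63.2), Pdxp, the pyridoxal phosphatase that also acts on cofilin (11.2 and 63.0), and Tsc22d4, a leucine zipper protein (8.67 and 58.4). Mapkap1, a subunit of the mTORC2 kinase complex, reached a fold enrichment of 14.8, and Pdgfc, a growth factor of the PDGF family, 13.0.

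The other 8 of the 15 regions with the highest −log10 q lay in Gucy2g, Col26a1, Fez1, Hpcal1, Aldoa, Fam126a, Synpo2 and Egln2. Gucy2g encodes a guanylyl cyclase, Col26a1 a collagen, Fez1 a kinesin adaptor, Aldoa a glycolytic enzyme and Egln2 an oxygen-sensing prolyl hydroxylase. Their −log10 q ran from 47.0 in Egln2 to 57.2 in Gucy2g. None of the 15 hosts was in the 4 lists of the cilium and basal body described below. Those lists held only 8 of all 775 hosts, so this says little about the strongest regions.

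**Figure D2:**
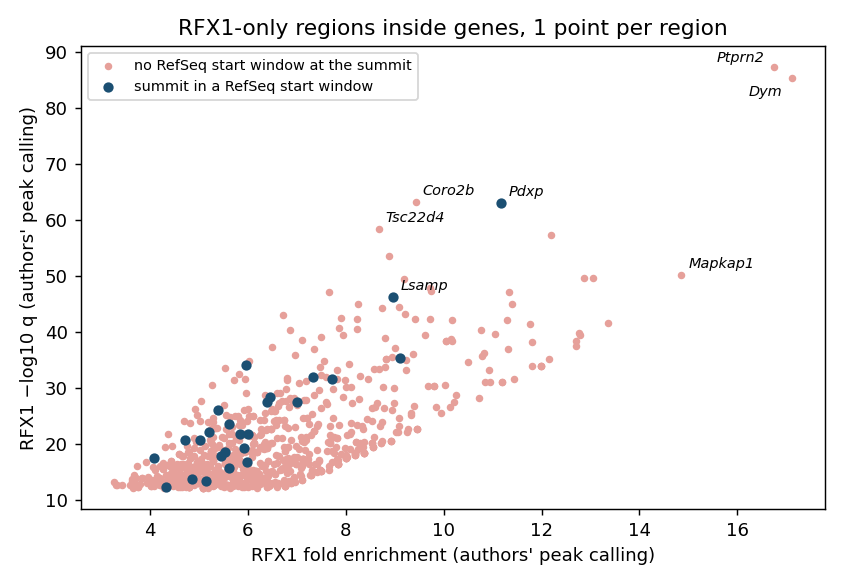
RFX1 fold enrichment (x axis) and −log10 q (y axis) of the 840 regions, 1 point each, both from the authors' peak calling; dark points are the 25 regions whose summit lies in a RefSeq start window. Ptprn2 and Dym stand apart at the top right, and the 25 regions at starts spread over the range up to Pdxp at a −log10 q of 63.0.

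Few of the regions lay within 1 kb of an RFX3 peak. The rule removed overlapping RFX3 peaks, and distances from other positions in the genome were not computed, so none is called near or far. The distance to the nearest RFX3 peak had a median of 47.5 kb (43.8 to 55.0 kb) over the 839 regions with an RFX3 peak on their chromosome. It was under 1 kb for 22 regions, under 10 kb for 152 (18.1%) and over 100 kb for 241 (28.7%). To the nearest RFX2 peak, from the shorter list of 1250 peaks, the median was 426.2 kb, and 35 regions were under 10 kb away. The closest case to an RFX3 peak was Serhl, a serine hydrolase-like gene, where the RFX1 peak (chr15:83107431-83107711, fold enrichment 7.04) lay 51 bp from an RFX3 peak with a fold enrichment of 3.93. In Cmya5, a muscle-associated protein gene, an RFX2 peak with a −log10 q of 23.3 lay 191 bp away. On the other side of the rule, the smallest overlap of an RFX1 and RFX3 region inside a gene was 76 bp, in Dab1.

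The limit on gene ends also ran close to some regions. The region nearest to a gene end lay in Wrap53, which encodes a Cajal body protein that binds telomerase RNA (chr11:69579090-69579418). Its summit was 1006 bp from the outer gene end but 5 bp from a start listed for Wrap53, with a fold enrichment of 5.97. Just outside was C2cd2l, a lipid transfer protein gene (chr9:44319165-44319432), with a summit at 998 bp and a fold enrichment of 4.96. Of the 840 regions, 75 (8.93%) lay 1 to 2 kb from a gene end and 117 (13.9%) over 100 kb away, and the median distance was 20.4 kb.

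Per Mb of gene body, RFX1-only regions were densest next to the limit. There were 1.97 regions per Mb at 1 to 2 kb from a gene end, 1.07 at 2 to 5 kb, from 0.747 to 0.898 between 5 and 100 kb, and 0.553 beyond 100 kb. Regions with RFX1 and RFX3 went from 3.23 to 1.31 over the same range and those with all 3 factors from 0.918 to 0.284. RFX3-only regions had 1.29 per Mb at 1 to 2 kb and their highest density, 2.13, at 50 to 100 kb. In shares, 21.1% of the RFX1-only regions lay 1 to 5 kb from a gene end (18.4 to 24.0%), as did 17.0% with RFX1 and RFX3, 21.5% with all 3 and 9.36% with RFX3 alone; distance was part of the rule, and no test was made. Within 1 kb of any RefSeq start of a coding gene or lncRNA lay 61 of the 814 regions on chromosomes with start windows here (7.49%).

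**Figure D3:**
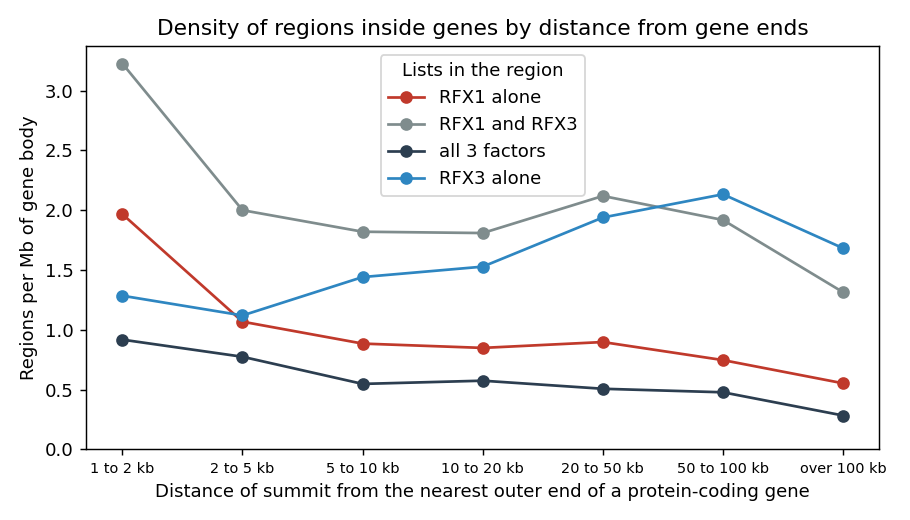
Regions inside genes per Mb of gene body (y axis) by distance of the summit from the nearest outer end of a protein-coding gene (x axis), for 4 kinds of region. RFX1-only regions (red) fall from 1.97 to 0.553 per Mb, while RFX3-only regions (light blue) peak at 2.13 between 50 and 100 kb.

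The 840 regions lay in 775 host genes, counting 6 regions that lay in several overlapping genes. One of the 6, in the protocadherin gamma cluster on chr18, counts for 24 genes that overlap there, and 751 hosts were left without them. The 775 are 3.54% of the 21887 protein-coding genes. Hosts were long: their median length was 101.7 kb, against 17.2 kb for all protein-coding genes. The share of genes that were hosts was 0.303% up to 10 kb, 4.85% from 30 to 100 kb and 25.5% over 300 kb, while the number of regions per Mb of gene stayed between 0.768 and 0.955 up to 300 kb and was 0.586 above it. Among the 2429 genes over 100 kb, 16.3% were hosts. By chromosome the density was highest on chr11, at 1.18 regions per Mb of gene body, and on the X chromosome it was 0.372, against 0.814 overall. The low number on the X chromosome was shared by other kinds. It held 17 of the 840 RFX1-only regions, 33 of the 1842 with RFX1 and RFX3 and 30 of the 1666 with RFX3 alone.

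**Figure D4:**
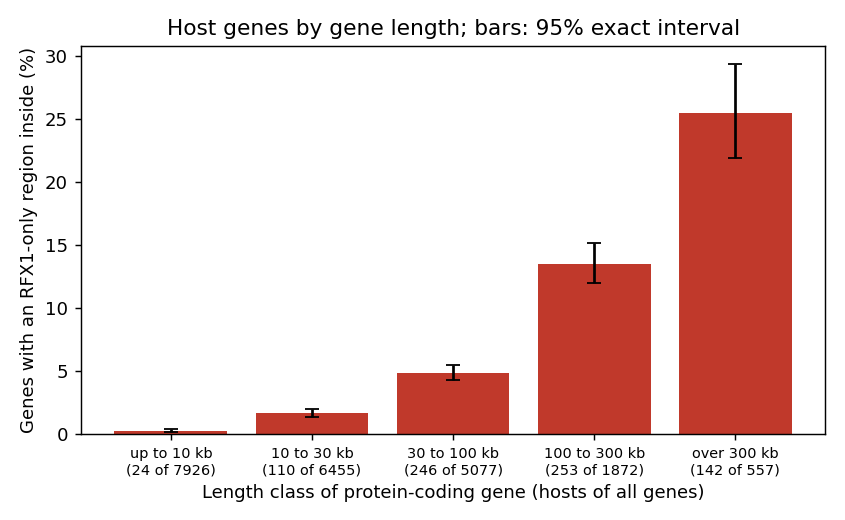
Share of protein-coding genes with at least 1 RFX1-only region inside (%, y axis) by gene length (x axis, with the number of hosts and of genes); error bars are 95% exact binomial intervals. The share rises from 0.303% of genes up to 10 kb to 25.5% of those over 300 kb.

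Hosts often carried other RFX regions. Of the 775 hosts, 350 (45.2%) also had a region of another kind inside, against 10.6% of other genes. Gene length moved with this. Within length classes the shares were 67.8% against 46.4% for genes over 100 kb and 21.6% against 6.77% for shorter genes. These classes did not match length, since the share of genes that were hosts still rose with length inside each. It was 0.303% up to 10 kb and 4.85% from 30 to 100 kb, then 13.5% from 100 to 300 kb and 25.5% over 300 kb. The gap at equal length was not tested. An RFX1 summit within 1 kb of an own end was present in 13.3% of hosts and 8.89% of other genes, but 24 of these 103 hosts were the genes of the protocadherin gamma cluster described above. Without them the share was 10.5% of 751 hosts, with 7.92% for hosts over 100 kb against 10.5% of other genes of that length, and 13.2% for shorter hosts against 8.72%. The shares with another RFX region inside were 69.9% and 22.04% for longer and shorter hosts without the cluster. These genes were picked by RFX1 peaks of the same list, so the shares are a description.

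Of the hosts, 694 had 1 RFX1-only region, 70 had 2, 9 had 3 and 2 had 4. The 2 with 4 were Dab1, an adaptor of reelin signalling, and Msi2, an RNA-binding protein of neural stem cells. In Dab1 the 4 regions had fold enrichments of 8.54, 5.58, 6.19 and 6.10 and lay 2.40, 87.2, 177.1 and 1100 kb from its start, the last beside a stronger region with RFX1 and RFX3 (15.6). The other Dab1 regions with RFX1 and RFX3 had RFX1 fold enrichments of 5.46 and 6.19. In Msi2 the RFX1-only regions had fold enrichments of 8.95, 7.48, 6.81 and 5.05, while its regions with RFX1 and RFX2 and with all 3 factors had 13.1 and 10.1. Its regions with RFX1 and RFX3 were no stronger than the RFX1-only ones, at 4.96 and 8.49. The 9 with 3 were Ahdc1, Cdk14, Cuedc1, Fhit, Itpkb, Kcnn3, Kirrel3, Sema6d and Zfhx3. In 10 of these 11 genes at least 1 other RFX region lay inside; the exception was Zfhx3, a large homeodomain zinc finger protein, with 3 RFX1-only regions of 4.48 to 6.48. Over the 81 hosts with several, the closest pair was a median of 53.5 kb apart and 18 hosts had a pair under 10 kb.

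**Figure D5:**
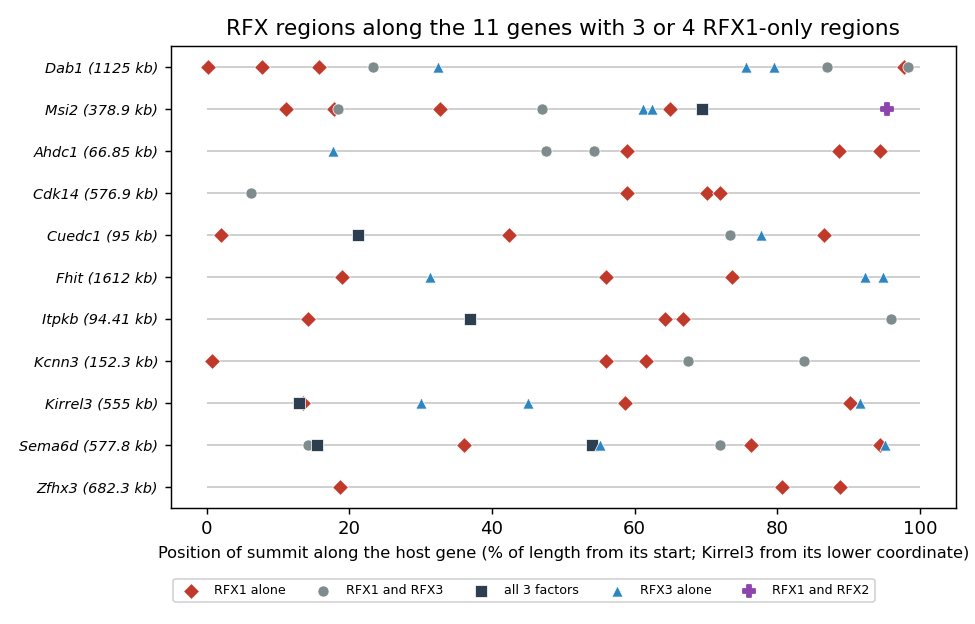
Position of RFX regions along the 11 genes with 3 or 4 RFX1-only regions, in % of gene length from the annotated start (x axis; Kirrel3, with no strand here, from its lower coordinate). Red diamonds are RFX1-only regions; the other symbols are regions with other factors, which are present in all but Zfhx3.

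Host genes were then counted in 25 gene lists, beside the 3.54% of all genes and the 16.3% of genes over 100 kb. Of 847 distinct list genes, 100 were hosts. Genes of the cilium were hosts at a share whose interval includes that of all genes, while most had an RFX peak at an end. Of 156 genes of the intraflagellar transport, transition zone, axoneme and basal body lists, 8 (5.13%, 2.24 to 9.85%) had an RFX1-only region inside. Within 1 kb of an end, 101 had an RFX1 summit, 95 an RFX3 summit and 36 an RFX2 summit. Among all genes that were not hosts, these shares were 8.89%, 7.76% and 2.05%. A region with RFX1 and RFX3 lay inside 19 of the 156, against 6.82% of all genes. The intraflagellar transport list, the machinery that builds cilia, had 1 host of 44, the retrograde motor heavy chain Dync2h1, with a fold enrichment of 12 (chr9:6966596-6967186). The transition zone list had 1 of 26, Invs, known for left-right asymmetry (7.68). The axoneme list had 4 of 53, which were Spag16, a central pair protein (8.01), Cfap44 (7.41), Ccdc114, a docking complex protein of outer dynein arms (5.20), and the inner arm dynein Dnah2 (4.66). The basal body list had 2 of 33, Cep83, a distal appendage protein (7.12), and Cep120, which promotes centriole elongation (6.86).

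The ependymal, multiciliated fate, planar cell polarity and astroglial lists had higher shares of hosts than the 3.54% of all genes. The numbers were small, and gene length was not matched. The higher shares were not particular to RFX1-only regions. In the same order, regions with RFX1 and RFX3 lay inside 4, 6, 11 and 4 genes of these lists, against 6.82% of all genes. Regions with all 3 factors lay inside 2, 8, 8 and 8, against 2.19%, and RFX3-only regions inside 1, 3, 7 and 8, against 5.77%. The ependymal list had 4 of 22 (18.2%, 5.19 to 40.3%): Hdc, the histamine-synthesising enzyme, was the strongest with a fold enrichment of 9.10 and a −log10 q of 44.5, followed by Spag16, the adenylate kinase Ak7 (6.32) and Cfap299 (6.16). The multiciliated fate list had 3 of 26 (11.5%, 2.45 to 30.15%, an interval that includes the share of all genes), the transcription factors Nfia (6.40), Rfx4 (5.09) and Foxn4 (4.60). Planar cell polarity, which aligns the beating of cilia, had 5 of 27 (18.5%), among them Fat3 (6.87), Intu (6.49), Vangl1 (5.61) and Ankrd6 (5.48). In this list 12 of the 27 genes were over 100 kb, a length at which 16.3% of all genes were hosts. The astroglial and neural stem cell list had 5 of 34 (14.7%), with glutamine synthetase Glul (8.06) and the bicarbonate transporter Slc4a4 (7.15) the strongest in −log10 q, then Sox6 (6.56). The microglial and the endothelial lists had 0 of 15 and 0 of 16 hosts (0 to 21.8% and 0 to 20.6%). Both intervals include the 3.54% of all genes, so these lists were too short to show a lower share.

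The share of hosts was highest in the lists of neuronal genes and transcription factors, whose median gene lengths were 386.7 and 163.1 kb. The ependymal and astroglial lists, at 18.2% and 14.7%, had medians of 15.7 and 11.7 kb. Only 4 of 22 and 6 of 34 of their genes were over 100 kb, but many of their hosts were. Those were Spag16 (898.3 kb), Cfap299 (472.9), Slc4a4 (445.8), Sox6 (569.9), Nfia (540.8) and Sox5 (953.9). The hosts Hdc, Ak7 and Glul had 30.4, 78.6 and 9.795 kb. The part played by gene length was not tested. Neuronal and synaptic genes had 11 hosts of 50 (22%, 11.5 to 36.0%), with 36 of the 50 genes over 100 kb; Gabbr2, a GABA-B receptor subunit (fold enrichment 8.81), Dlg4, the scaffold PSD-95 (5.82), Dab1 and Cntnap2, an adhesion protein (9.07), were the strongest in −log10 q. Transcription factors of neural development had 13 of 59 (22%), with 38 over 100 kb, led by Nfatc1 (7.82), Foxn3 (6.78), Meis1 (9.33) and Prdm16 (5.54). Axon guidance had 9 of 46 (19.6%, 9.36 to 33.9%), with the receptor Robo1 at 10.9 and the ligands Sema3e at 8.08 and Sema6d at 5.60. Cadherins and protocadherins had 6 of 32 (18.8%, 7.21 to 36.4%), led by Pcdh10 (11.8) and Clstn2 (7.56). Voltage-gated ion channels had 7 of 42 (16.7%, 6.97 to 31.4%), led by Cacna1c (8.80) and Kcnh1 (8.34). In these 3 lists 32, 20 and 35 genes were over 100 kb. All 3 intervals include the 16.3% of hosts among all genes of that length. Extracellular matrix genes were also long, with 25 of 44 over 100 kb, and had 1 host, tenascin R (Tnr, 8.32).

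Among signalling lists, FGF and receptor tyrosine kinase genes had the highest share, 5 of 31 (16.1%, 5.45 to 33.7%). They were also the longest, with a median of 104.4 kb and 16 of 31 genes over 100 kb. The medians of the other signalling lists ran from 23.7 kb (Notch) to 69.0 kb (BMP and TGF-beta). Of all genes over 100 kb, 16.3% were hosts. The ligand Nrg1 had a fold enrichment of 9.40 and the receptors Fgfr2, Insr and Ntrk2 had 6.55, 5.98 and 5.64. The Notch list had 3 of 33 (9.09%), the receptor Notch1 (4.43), its ligand Jag1 (4.47) and the regulator Dtx1 (4.91). The Wnt list had 3 of 42 (7.14%), the ligand Wnt4 (5.36), the transcription factor Tcf7l1 (4.97) and the destruction complex scaffold Apc (4.49). BMP and TGF-beta signalling had 2 of 35, the signal transducer Smad3 (5.72) and the ubiquitin ligase Smurf2 (6.09), and hedgehog signalling had 1 of 23, the coreceptor Boc (5.05). Histone and chromatin regulators had 5 of 50, among them Chd9 (8.12), Arid1b (7.94), the polycomb protein Eed (7.26) and Chd2 (5.52). The oligodendrocyte list had 2 of 22, the myelin genes Mbp (4.96) and Cnp (4.58), and the choroid plexus list 1 of 15, the prolactin receptor Prlr (6.93).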

How the data were processed

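ChIP-seq of RFX1, RFX2 and RFX3 was represented by 3 reproducible peak lists on GRCm38, deposited in narrow-peak layout with replicates merged. MACS2 2.0.10.20130520, Bowtie 0.12.7 and CASAVA 1.8.2 are named in the submitters' processing notes, with no role stated. The rule for a reproducible peak, the control and the read depth are not stated there or in the labels. The deposited values used were a fold enrichment (a ratio) and a −log10 q per peak; the deposited score only repeats the −log10 q, and 1 further value column per list was not used. All these values are the authors' own and were used only to describe and rank peaks within 1 list.

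Peaks sharing at least 1 bp were merged into regions, and genes came from the RefSeq GRCm38.p6 table (21887 protein-coding genes), which gives outer ends without strand. The table does not separate exons from introns. Strand and sequence came from RefSeq start windows, held for 17492 of these genes and not used for chromosome 18. No genome was used, so the motif tests planned for 100 bases either side of each summit were run on the start windows that hold a summit. Motifs were searched on both strands; the first arm of the NFI site is part of the full site, and the X-box arm can be part of the full X-box. Shares carry 95% Clopper-Pearson intervals; tests were two-sided Fisher's exact tests with Benjamini-Hochberg adjustment over 6 position tests and 26 motif tests at a threshold of 0.05 (Python 3.11.15, SciPy 1.17.1), and the counting code was tested on simulated data.

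The regions and the 25 gene lists were chosen with earlier results of these data known. Genes are named as the 15 regions with the highest −log10 q, hosts with 4 or more regions, up to 4 hosts per list by −log10 q, and the regions at the limits of the rule; hosts with 3 regions and those at start windows were added after their values were seen. The result of 1 list is not reported here. All 873 list entries matched the gene table, 5 of them through an older symbol.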

Additional observations from a re-analysis of the deposited data

How the results depend on the processing

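Of 61 alternative values, 51 kept their direction, side of the threshold or size. The limit for size was wide, since counts of 663 and 1007 were taken as kept beside 840. Some values could hardly move. Taking the best RFX1 peak of a region could change nothing, as each region held 1 RFX1 peak. Asking for at least 50 shared bp also left every value unchanged. The tally is therefore no measure of robustness. The count of 840 regions was 830 when peaks up to 200 bp apart were merged, 895 and 663 with limits of 500 bp and 5 kb from gene ends, 911 with all genes of the table and 779 without regions near any RefSeq start on chromosomes with start windows here, an alternative chosen after seeing the data, as was the count of 751 hosts without the protocadherin gamma cluster. With a fold enrichment of at least 4 in every list it was 1007, since weaker RFX3 and RFX2 peaks were dropped, and the median −log10 q moved to 19.1. With the better-scoring 50% of RFX1 peaks, 115 regions in 116 host genes were left, with a median fold enrichment of 8.98, a median −log10 q of 35.5 and a median distance to an RFX3 peak of 37.5 kb. With the X-box arm in place of the full X-box, the odds ratios turned from 0.422 to 1.12 against RFX1 and RFX3 and from 0.348 to 1.17 against RFX3 alone, none past the test. The better-scoring 50% gave no odds ratio against RFX3 alone, as neither side had a full X-box. For summits in start windows, alternatives also chosen after seeing the data, the odds ratio against RFX3 alone was 1.38 beyond 5 kb from gene ends, and that against 3-factor regions was 0.619 in the better-scoring 50%, both no longer past the threshold; the cause was not tested.

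No paired analysis was possible because replicates had been combined into 1 list per factor, and for the same reason none was left out. Read depth is unknown, so a missing RFX2 or RFX3 peak shows only that none was called.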

Other observations

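Of 1005 microRNA hairpins in the RefSeq table used here, 4 lay within 2 kb of an RFX1-only summit: Mir7662 in Tspan15 at 444 bp, Mir3109 in Anxa2 at 952 bp, Mir3081 in Boc at 1446 bp and Mir8114 in Glul at 1545 bp. The 4 RFX1 peaks had fold enrichments of 4.66, 7.59, 5.05 and 8.06.

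The second-strongest of the 25 summits at annotated starts lay in Lsamp, a neuronal adhesion protein gene, 431.7 kb from the nearest outer gene end and 114 bp before a start listed for that gene (fold enrichment 8.97, −log10 q 46.1). The closest pair of RFX1-only summits in 1 host lay 0.354 kb apart, in Armc2.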
